A study of Mus musculus with 8 samples.

Results

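Icam1, Vcam1, Dlk1, Ggt5, F3, Sparcl1, Apoe and Apod are 8 genes used as markers of committed preadipocytes, the fat cell precursors that stand closer to adipocytes than the interstitial progenitors of the tissue. They were chosen by name, and each was followed through every array probe that the platform annotation gives its symbol. Of the 8 genes, 7 had a named probe (14 probes in all) and 6 could be tested, because at least 1 of their probes was above background, at a detection p under 0.05, on at least 4 of 8 arrays. The 10724 genes tested in the same way make up the comparison as a whole.

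The cells were adipose progenitors from the epididymal fat of lean C3H/HeOuJ mice aged 3 months, released with collagenase and sorted by flow cytometry. Both fractions were negative for the leukocyte protein CD45 and the endothelial protein CD31 and positive for Gp38 (podoplanin) and PDGFRα, and they differed in surface CD9: CD9high (4 samples) and CD9low (4 samples). Every sample title carries the word chow, the standard diet, and the labels name no genetic change or other treatment. They do not say whether a sample is 1 mouse or a pool, so the p-values speak of the spread among these 8 arrays alone, part of which may be technical. Levels are normalized log2 intensities, and each difference is CD9high minus CD9low on that log2 scale, given with its standard error (SE).

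In mouse fat, Dpp4-positive interstitial progenitors are known to give rise to Icam1-positive preadipocytes, which carry more of the fat cell programme. A further population positive for F3, also called CD142, has been described beside them and was reported to restrain the differentiation of its neighbours. A marker of the committed state would therefore be looked for at a lower level in a fraction that resembles interstitial progenitors. CD9high was taken as that fraction here, which was not tested apart from these data.

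One library stood apart and is named here because several values below rest on it. CD9low replicate 2 had the fewest probes above background (18618, against 19280 to 23121 on the other arrays) and the lowest median rank correlation with its own fraction (0.842, against 0.904 to 0.957). On it, 26.4% of the genes tested lay more than 1 on the log2 scale from the mean of the rest of the fraction, against 3.15% to 13.9% for the other arrays. The sort marker Cd9 matched the labels, at 8.44 ± 0.14 in CD9high and 4.80 ± 0.52 in CD9low (SD, n = 4), and Pdgfra (11.22 against 11.13) and Pdpn (11.03 against 11.08) were well above background on all arrays. Leukocyte and endothelial RNA was not absent: Ptprc, which encodes CD45, was above background on 5 of 8 arrays and Pecam1, which encodes CD31, on 8 of 8. In bulk samples of this kind, fewer cells of a type and less RNA per cell cannot be told apart.

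Over all 8 arrays none of the 6 tested markers passed the test. Limma with Benjamini-Hochberg adjustment over all genes called 0 of 6 at an adjusted p under 0.05, where 1.69% of all tested genes were called (1.13% higher and 0.559% lower in CD9high). At an unadjusted p under 0.05 there were 3 of 6, namely Icam1, Apoe and Ggt5, where 10.7% of all genes reached that. The markers did not point one way: Apoe and Ggt5 were below 0, and Icam1, F3, Sparcl1 and Vcam1 above it, where 54.4% of all genes were below 0, though Vcam1 was at -0.042 when the normalization offset was raised from 16 to 50. Without CD9low replicate 2, Vcam1 and Sparcl1 were below 0 as well, so that 4 of 6 were, as were 53.7% of all genes. Then 1 of 6, Apoe, passed the test as lower in CD9high, where 2.14% of all genes passed it (0.671% lower and 1.47% higher). At an unadjusted p under 0.05 there were then 4 of 6, Vcam1 added, where 10.4% of all genes reached that.

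**Figure D1:**
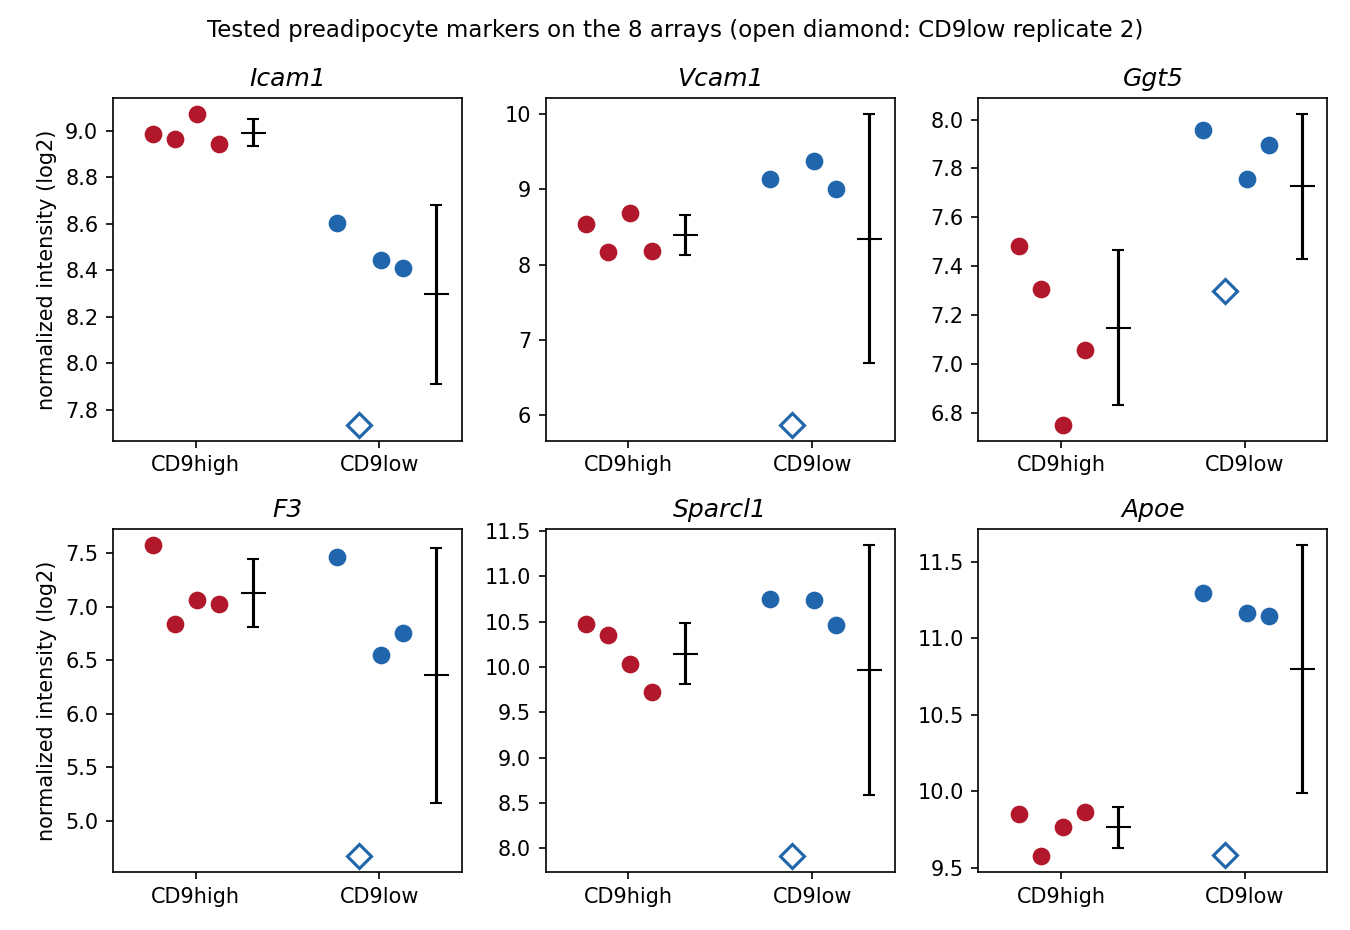
Normalized log2 intensity of the 6 tested markers on each array (circles; red CD9high, blue CD9low), with the mean and SD of the 4 arrays of a fraction beside them. The open diamond is CD9low replicate 2, the lowest CD9low array for all 6 genes by their brightest probes. It lies near the CD9high arrays for Apoe (9.59) and far below all others for Vcam1 (5.86) and Sparcl1 (7.91).

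Icam1 encodes an adhesion receptor of the immunoglobulin superfamily that binds leukocyte integrins, and it is the surface protein by which committed preadipocytes are usually sorted. It read 8.99, 8.96, 9.07 and 8.94 in CD9high replicates 1 to 4 and 8.60, 7.73, 8.44 and 8.41 in CD9low. Every CD9high array lay above every CD9low array, which is opposite to the direction looked for. The fractions did not overlap for 1 of 6 markers, and for 7.69% of all tested genes (3.92% higher and 3.78% lower in CD9high). The difference was 0.69 (SE 0.24, 95% interval 0.17 to 1.22, limma adjusted p = 0.287), or 1.62-fold, and the exact two-sided permutation p of 0.0286 is the smallest that 4 against 4 arrays can give. Without CD9low replicate 2 it was 0.51 (SE 0.18, limma adjusted p = 0.316), again with no overlap. It was 0.75 on slide 1, which held replicates 1 to 3, and 0.53 on slide 2, which held replicate 4 of each fraction.

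F3, or tissue factor, the membrane protein that starts the coagulation cascade, was the other marker with a difference above 0 on both slides. Its probe read 7.58, 6.84, 7.06 and 7.02 in CD9high and 7.46, 4.67, 6.55 and 6.75 in CD9low. The fractions overlapped, and on CD9low replicate 2 the probe was not above background (detection p 0.132). The difference was 0.77 (SE 0.50, limma adjusted p = 0.647) over all arrays and 0.21 (SE 0.28, 95% interval -0.42 to 0.83, limma adjusted p = 0.921) without that array. Of 9 tested coagulation genes, F3 included, the median was -0.10, and 0.075 without CD9low replicate 2. By limma 0 of them were called and 1 had an unadjusted p under 0.05, where 10.7% of all genes did. That gene was F2r, a thrombin receptor (0.59, SE 0.24, limma adjusted p = 0.407), while Tfpi, the inhibitor of the tissue factor pathway, differed by -0.10 (SE 0.33, limma adjusted p = 0.941).

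Icam1 and F3 are textbook targets of the transcription factor NF-kB, so their upstream bases are shown to let the known kB letters be seen in place. RefSeq promoter windows of build GRCm38.p6 were at hand for 5 of the 8 genes, in 7 windows, and the 250 bases before the annotated start of both genes are printed 5′ to 3′ on the strand of the gene, which is the plus strand for both. Capitals mark the letters GGANNTTCC, searched on both strands.
Icam1, chr9:21015690-21015939: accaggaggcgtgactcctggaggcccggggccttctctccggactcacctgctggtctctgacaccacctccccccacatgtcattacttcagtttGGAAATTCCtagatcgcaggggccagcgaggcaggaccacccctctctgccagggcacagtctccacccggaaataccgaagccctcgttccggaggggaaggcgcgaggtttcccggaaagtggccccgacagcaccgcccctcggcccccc
F3, chr3:121723287-121723536: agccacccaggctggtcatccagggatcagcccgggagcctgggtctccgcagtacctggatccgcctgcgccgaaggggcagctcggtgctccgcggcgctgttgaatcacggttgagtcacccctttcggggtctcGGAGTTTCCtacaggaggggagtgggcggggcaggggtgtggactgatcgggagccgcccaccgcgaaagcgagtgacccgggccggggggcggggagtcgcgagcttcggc

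The marked letters ran from 153 to 145 bases before the start in Icam1, where they match on both strands at the same place, and from 112 to 104 bases before it in F3. Of all 32851 windows of that length, 3.59% held GGANNTTCC. A different and looser pattern, GGGNNTNCC, has G where GGANNTTCC has A and any base where it has its last T. It was found in 14% of all windows and in neither of these. The window of Apod also held GGANNTTCC, on the opposite strand, while those of Dlk1 and Apoe did not. A window of Apoe held the looser GGGNNTNCC, from 204 to 196 bases before the start. These matches describe the letters only.

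Neither Icam1 nor F3 passed the test. Of 30 further genes listed for the NF-kB and cytokine response, 25 were tested. By limma 0 of these were called and 3 had an unadjusted p under 0.05, where 10.7% of all genes did. The median difference was 0.01, against -0.04 over all genes tested, and -0.092 without CD9low replicate 2. The smallest p was that of Ptgs2, an inducible prostaglandin synthase gene, at 7.99 ± 0.59 in CD9high and 5.87 ± 1.13 in CD9low (SD, n = 4; difference 2.13, SE 0.52, limma adjusted p = 0.0827), and at 1.69 without CD9low replicate 2. Among 17 tested adhesion genes of the immunoglobulin fold, Icam1 and Vcam1 included, 1 rose, Cadm3, a cell adhesion gene best known from the nervous system (2.07, SE 0.23, limma adjusted p = 0.00161), and 0 fell, with a median of 0.01, and of -0.052 without CD9low replicate 2. Of the integrin genes whose products bind Icam1 or Vcam1, 6 were tested and 0 were called, 1 with an unadjusted p under 0.05; that was Itga9, a partner chain for Vcam1 (0.94, SE 0.27, limma adjusted p = 0.160).

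Vcam1, the adhesion receptor for integrins with the alpha 4 chain, was read by 2 tested probes, which parted in size on CD9low replicate 2. The brighter one, ILMN_2778655, read 8.54, 8.16, 8.69 and 8.18 in CD9high and 9.14, 5.86, 9.38 and 9.01 in CD9low. CD9low replicates 1, 3 and 4 lay above every CD9high array and CD9low replicate 2 far below every one. The difference was 0.05 (SE 0.66, 95% interval -1.41 to 1.51, limma adjusted p = 0.989) over all arrays and -0.78 (SE 0.22, limma adjusted p = 0.140) without CD9low replicate 2, where the fractions no longer overlapped, as for 11.3% of all genes then (5.45% lower in CD9high) and for 4 of 6 markers.

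The other tested probe of Vcam1, ILMN_1232768, read 7.23, 7.35, 6.51 and 6.95 in CD9high and 7.42, 6.91, 7.25 and 7.49 in CD9low. Here CD9low replicate 2 lay at -0.48 from the mean of the other CD9low arrays, whereas with the brighter probe the same distance was -3.31. The difference between fractions was -0.26 (SE 0.26, limma adjusted p = 0.797 over all tested probes). Another 2 Vcam1 probes were above background on 1 and on 0 of 8 arrays and were not tested.

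Such a parting of probes was common on that array. Over the 4642 genes with at least 2 tested probes, the 2 brightest probes of a gene parted by more than 1 on the log2 scale for 34.8% of genes on CD9low replicate 2 and for 21.4% on CD9high replicate 2, against 7.26% to 12.2% on the other 6 arrays. This measure, chosen after the values were seen, takes each probe's distance from the mean of the other arrays of its fraction. For Vcam1 the gap, brighter minus dimmer probe, was -2.83, and 2.52% of genes had a gap at least as wide on that array.

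**Figure D2:**
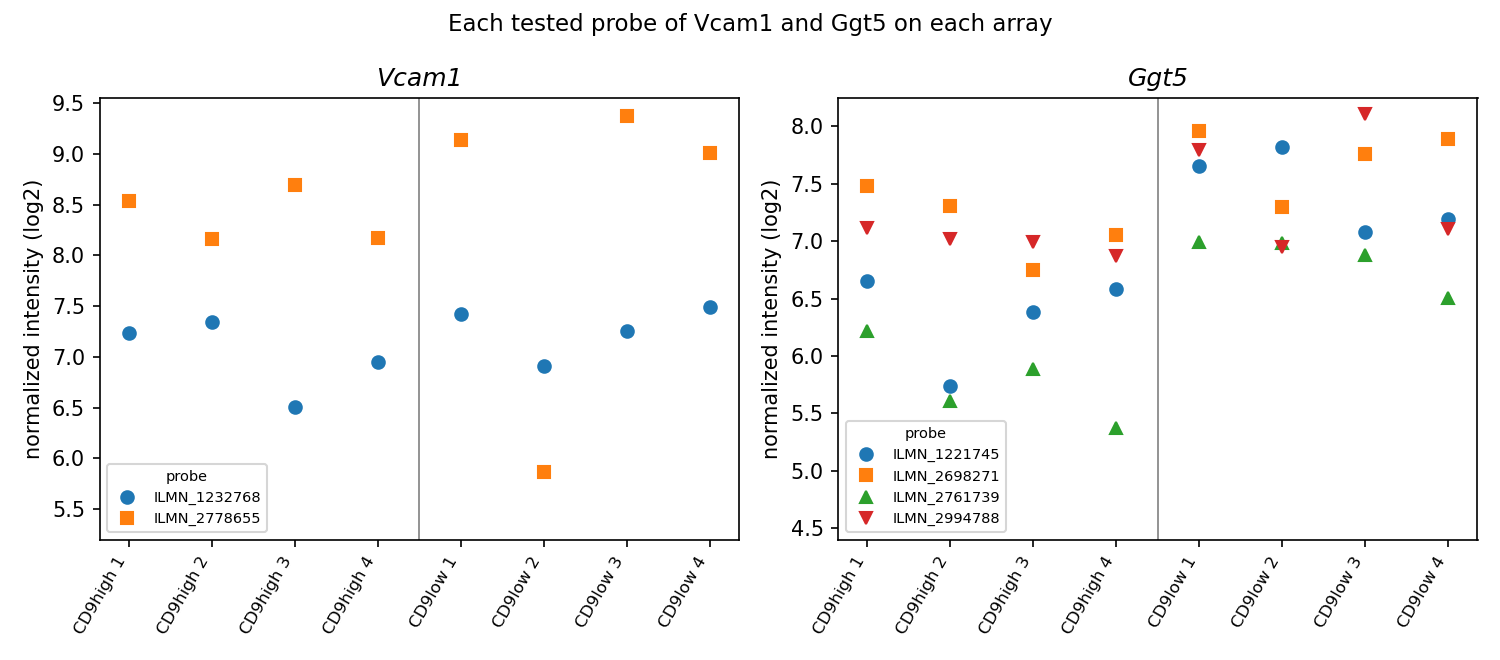
Normalized log2 intensity of the 2 tested probes of Vcam1 and the 4 tested probes of Ggt5 on each array, CD9high left and CD9low right of the line. Each probe is to be read against itself: on CD9low replicate 2 both probes of Vcam1 (ILMN_2778655 most) and ILMN_2698271 and ILMN_2994788 of Ggt5 lie below the rest of the fraction, while ILMN_1221745 and ILMN_2761739 of Ggt5 do not.

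Ggt5, a gamma-glutamyltransferase that acts on glutathione and on leukotriene C4, was the marker for which most probes spoke, and all 4 were lower on average in CD9high. The brightest, ILMN_2698271, which stands for the gene, read 7.48, 7.31, 6.75 and 7.06 in CD9high and 7.96, 7.30, 7.76 and 7.89 in CD9low. The fractions overlapped only through CD9low replicate 2, and the difference was -0.58 (SE 0.25, limma adjusted p = 0.437) over all arrays and -0.72 (SE 0.23, limma adjusted p = 0.209) without that array.

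With 2 of the 4 Ggt5 probes the fractions did not overlap. By the brightest probe of each gene, 7.69% of all tested genes had no overlap. The share over all tested probes was not counted. ILMN_2761739 read 6.22, 5.61, 5.88 and 5.37 in CD9high and 6.99, 6.98, 6.88 and 6.51 in CD9low, a difference of -1.07 (SE 0.26, limma adjusted p = 0.0825 over all tested probes). ILMN_1221745 read 6.66, 5.74, 6.38 and 6.59 in CD9high and 7.66, 7.82, 7.08 and 7.19 in CD9low, a difference of -1.10 (SE 0.28, limma adjusted p = 0.119). ILMN_2994788 differed by -0.49 (SE 0.29, limma adjusted p = 0.644) and overlapped. None of the 4 probes passed the test, where 1.22% of all tested probes did. Without CD9low replicate 2 the 4 differences ran from -1.02 to -0.67, and again none passed.

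Genes of glutathione and cysteinyl leukotriene metabolism gave 0 calls among 16 tested, Ggt5 included, where 1.69% of all genes were called. By limma 5 of 16 had an unadjusted p under 0.05, where 10.7% of all genes did. Their median was -0.31, against -0.04 over all genes, and -0.07 without CD9low replicate 2. The smallest p was that of Dpep1, a dipeptidase gene whose product acts on leukotriene D4, one step after Ggt5 (-0.72, SE 0.20, limma adjusted p = 0.148, no overlap). Ggt7 had no probe above background on any array. Without CD9low replicate 2, 1 of the 16 fell, where 0.671% of all genes did. It was Mgst1, a microsomal glutathione transferase gene, which changed by -1.03 (limma adjusted p = 0.0337).

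Apoe encodes the lipoprotein particle protein that is bound by lipoprotein receptors of the cell surface, and, among the brightest probes of the 6 markers, had the largest difference in the direction looked for. It read 9.85, 9.57, 9.77 and 9.86 in CD9high, a spread of 0.13 (SD), and 11.30, 9.59, 11.16 and 11.15 in CD9low. CD9low replicates 1, 3 and 4 stood more than 1 above every CD9high array, and CD9low replicate 2 stood among them. The difference was -1.03 (SE 0.36, 95% interval -1.83 to -0.23, limma adjusted p = 0.300) over all arrays, with an exact two-sided permutation p of 0.114. Without CD9low replicate 2, Apoe fell by 1.44 on the log2 scale in CD9high (-1.44, SE 0.19, 95% interval -1.86 to -1.01, limma adjusted p = 0.00422), or 2.71-fold, with no overlap among 4 and 3 arrays. The difference within slide 1 was -0.95 and within slide 2 it was -1.29.

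Apoe is also abundant in macrophages, so their markers were read beside it. Of 15 macrophage markers with a probe, 14 were tested and 0 called, 0 with an unadjusted p under 0.05 by limma, and Fcer1g was not above background on any array. Their summed linear intensity ran from 827 to 6065 in CD9high and from 658 to 7289 in CD9low, with the highest values on replicate 2 of each fraction. For replicates 1 to 4 the sums were 2757, 6065, 2113 and 827 in CD9high and 2742, 7289, 3267 and 658 in CD9low. Between arrays of the same number, Apoe differed by -1.45, -0.010, -1.39 and -1.29 in the same order. The part of macrophage RNA in the Apoe values was not tested.

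Of 18 tested genes of lipoprotein handling, lipid efflux and the LXR response, Apoe included, 0 rose and 2 fell, and the other 16 did not pass. Over all genes tested 1.13% rose and 0.559% fell. The median of the 18 was -0.25, and -0.095 without CD9low replicate 2. Lpl, which encodes the lipase that releases fatty acids from lipoproteins, changed by -1.01 (SE 0.19, limma adjusted p = 0.0307), and Sort1, a sorting receptor that binds lipoprotein lipase, by -1.38 (SE 0.27, limma adjusted p = 0.0342). Nr1h3, which encodes the LXR alpha receptor, for which Apoe is a known target, stood at 8.91 ± 0.16 in CD9high and 10.04 ± 0.39 in CD9low (SD, n = 4; difference -1.13, limma adjusted p = 0.0506). The efflux transporter gene Abca1 differed by 0.20 (SE 0.32) and the receptor gene Lrp1 by -0.27 (SE 0.21), neither past the test (limma adjusted p = 0.872 and 0.710), and Abcg1 had no probe above background on any array. Without CD9low replicate 2, Apoe and the transporter gene Abca8a (-1.11, limma adjusted p = 0.0386) joined Lpl and Sort1, so that 4 of 18 fell. Over all genes 0.671% fell then. On the array left out, Apoe lay at -1.62 and Abca8a at -1.61 from the mean of the other CD9low arrays.

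Sparcl1, or hevin, a matricellular glycoprotein related to Sparc, read 10.47, 10.35, 10.03 and 9.72 in CD9high and 10.75, 7.91, 10.74 and 10.47 in CD9low. CD9low replicates 1 and 3 lay above every CD9high array, replicate 4 level with the highest of them and replicate 2 far below all. The difference was 0.17 (SE 0.57, limma adjusted p = 0.940) over all arrays and -0.51 (SE 0.24, 95% interval -1.04 to 0.02, limma adjusted p = 0.498) without CD9low replicate 2. Its paralog Sparc stood at 12.72 ± 0.19 and 12.44 ± 0.72 (SD, n = 4) and was likewise lower on that array, at -1.27 from the other CD9low arrays. Of 8 tested genes of the SPARC family 0 were called by limma, 2 with an unadjusted p under 0.05, where 10.7% of all genes reached that. The smallest p was that of Spock2 (0.80, SE 0.25, limma adjusted p = 0.218).

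**Figure D3:**
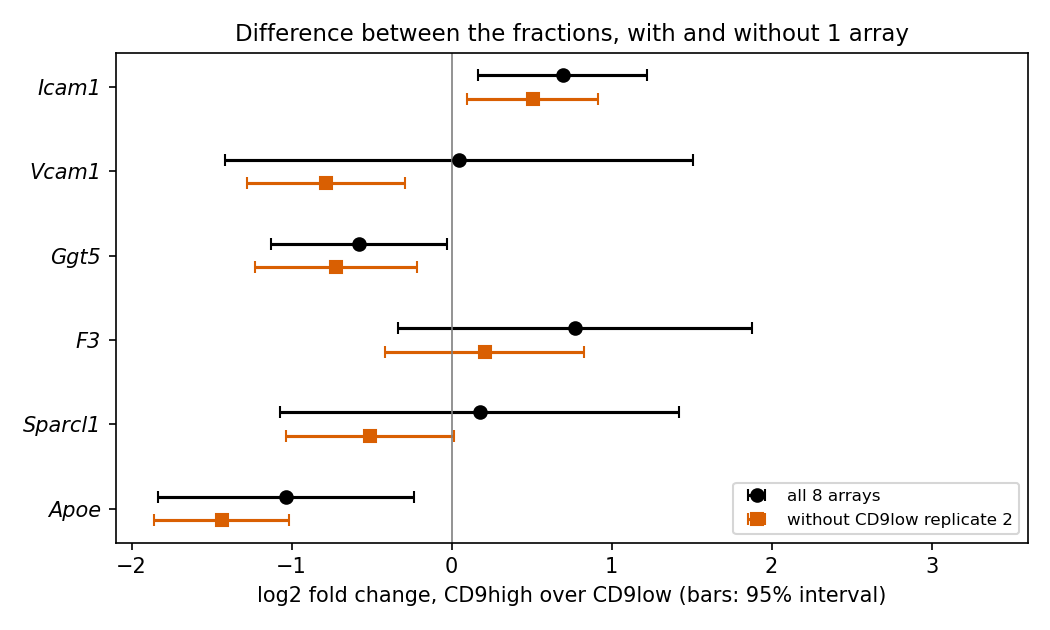
Log2 fold change of CD9high over CD9low with its 95% interval for each tested marker, over all 8 arrays (black circles) and without CD9low replicate 2 (orange squares). The intervals narrow without that array, Vcam1 and Sparcl1 move from near 0 to -0.78 and -0.51, and Icam1 stays above 0 at 0.51.

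Dlk1, known as Pref-1, a membrane protein that holds preadipocytes undifferentiated, could not be compared. Its 2 probes were above background on 0 and on 1 of 8 arrays, the latter being a CD9high array, with deposited signals between -7.71 and 21.2. At this signal over background no difference was detectable. Of 20 tested genes near Dlk1 in its imprinted domain or in the imprinted growth network, 1 fell, Dio3, which encodes the deiodinase that inactivates thyroid hormone and lies in the domain of Dlk1 (-1.29, SE 0.26, limma adjusted p = 0.0389), and 0 rose. The noncoding Meg3 of the same domain differed by -0.15 (SE 0.51, limma adjusted p = 0.944). Apod, a lipocalin that carries small lipids, had no named probe and is not analysed here. Among 5 tested lipocalin family genes 0 were called by limma, 1 with an unadjusted p under 0.05, where 10.7% of all genes reached that. It was Rbp4, the retinol carrier (0.92, SE 0.21, limma adjusted p = 0.0670).

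Other markers of the committed state separated into opposite directions too. Of 19 tested outside the 8 genes above, 4 fell in CD9high and 2 rose, the other 13 did not pass, and the median was -0.55 against -0.04 over all genes. The genes that fell were Pparg, the nuclear receptor that drives fat cell formation (-1.59, SE 0.28, limma adjusted p = 0.0204), the chemokine gene Cxcl14 (-1.47, SE 0.27, limma adjusted p = 0.0255), Lpl, and the lipid droplet gene Plin2. Plin2 was just under the threshold (-1.58, SE 0.34, limma adjusted p = 0.0495). Those that rose were Mgp, an inhibitor of calcification (2.43, SE 0.42, limma adjusted p = 0.0186), and Clec11a, a secreted growth factor gene (1.55, SE 0.24, limma adjusted p = 0.0111). Both also stand on the list of markers of F3-positive stromal cells, on which 2 of 11 tested genes rose, 0 fell and 10 of 11 were above 0, F3 included, with a median of 1.36; without CD9low replicate 2, 4 of 11 rose. Of 24 tested interstitial progenitor markers 8 rose and 0 fell, with a median of 1.26, and the 4 with the smallest p were Sfrp4, a secreted Wnt antagonist gene (2.71), Il33, an alarmin gene (2.25), Dpp4, a surface peptidase gene (1.60), and Cd55, a complement regulator gene (1.49). Over all tested genes 1.13% rose and 0.559% fell. The lists were chosen with earlier results of these data known, so these counts do not test independently which fraction resembles interstitial progenitors.

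**Figure D4:**
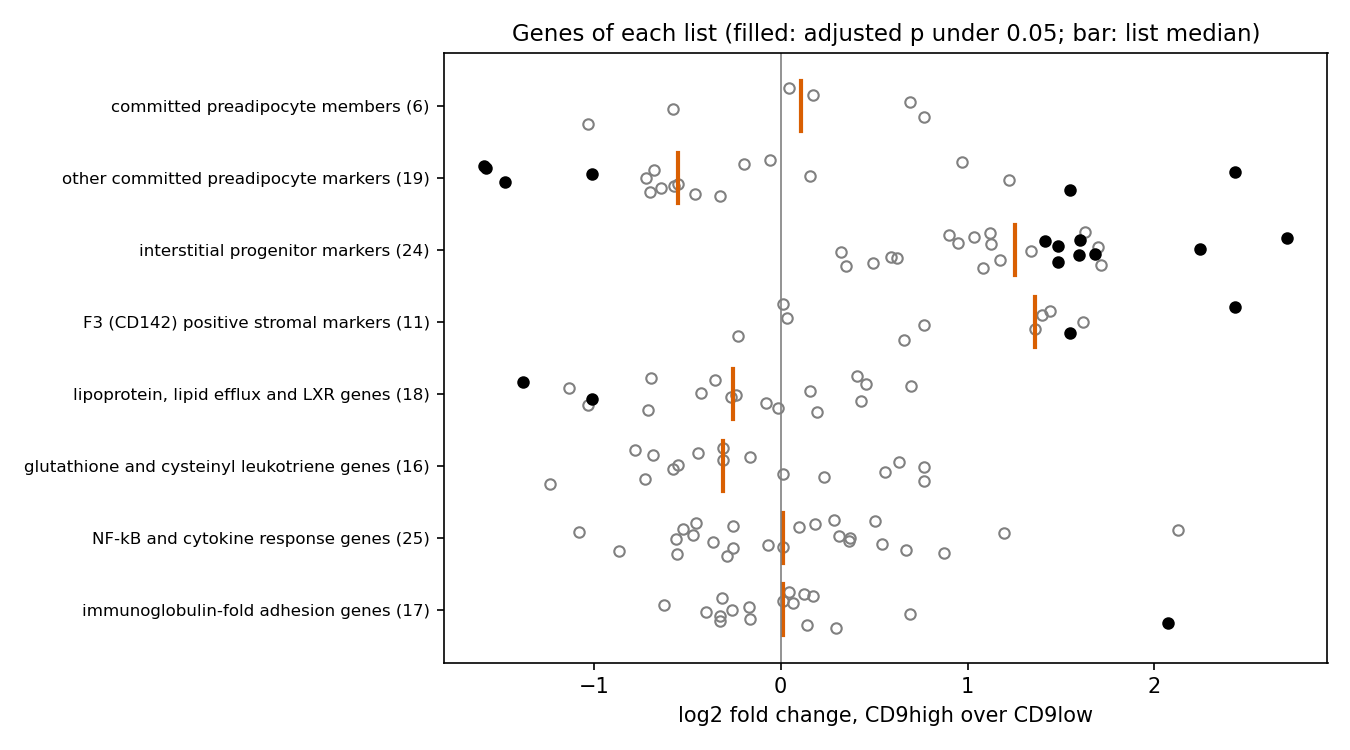
Log2 fold change of CD9high over CD9low for each tested gene of 8 lists, with the number tested in brackets; filled points passed an adjusted p of 0.05 and the orange bar is the list's median. The 6 tested markers spread from -1.03 to 0.77 around a median of 0.11, with none filled; without CD9low replicate 2, their median was -0.62, beside -0.55 for the other committed markers and 1.31 for the interstitial markers.

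With each gene centred on its own mean, the closest pair of profiles over the 8 arrays was Vcam1 and Sparcl1, with a root mean square difference of 0.305 on the log2 scale, and the farthest was F3 and Apoe, with 0.956. By the brightest probe of each gene, CD9low replicate 2 lay below the mean of the other CD9low arrays for 6 of 6 markers. The deviation was -3.31 for Vcam1, -2.74 for Sparcl1, -2.25 for F3, -1.62 for Apoe, -0.75 for Icam1 and -0.57 for Ggt5. Other Ggt5 probes parted on this, with ILMN_2994788 at -0.72, ILMN_2761739 at 0.19 and ILMN_1221745 at 0.51. Over all tested genes the median of that deviation was 0.14, 4679 of 10724 genes lay below 0 and 12.8% lay at least 1 below. For Vcam1 0.289% and for Sparcl1 0.83% of genes lay at least as low. Without that array the SD of CD9low was 0.08 for Apoe and at most 0.48, for F3.

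By the same measure the 5 genes nearest to the profile of Icam1 were Chmp2b, an endosomal sorting gene (0.105), Socs5, of the suppressors of cytokine signalling (0.117), the zinc finger gene Zfp521 (0.143), Gng10, a G protein subunit gene (0.143), and Gstm5, a glutathione transferase gene (0.147). Their differences between fractions ran from 0.54 to 0.65, and none passed the test (limma adjusted p from 0.372 to 0.543). Since they were chosen for a profile near that of Icam1, a difference near that of Icam1 follows from the choice. Each of them, like Icam1, lay below its CD9low mean on CD9low replicate 2, which follows from the same choice.

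Markers of other cells that express some of these genes were read as well. Over all genes tested 54.4% were below 0 and 10.7% had an unadjusted p under 0.05 by limma. Of 12 tested endothelial markers 0 were called by limma, 0 with an unadjusted p under 0.05, and 11 of 12 were below 0. Their summed linear intensity ran from 1521 to 2088 in CD9high and from 1376 to 4200 in CD9low, where the highest was replicate 2. Of 12 tested pericyte and smooth muscle markers 0 were called, 1 with an unadjusted p under 0.05, and 10 were below 0; the sums ran from 3580 to 4843 in CD9high and from 4501 to 5923 in CD9low. Of 7 tested mesothelial markers 1 fell, Cldn15 (-1.70, limma adjusted p = 0.00393), and 6 were above 0. By limma 3 of 7 had an unadjusted p under 0.05, where 10.7% of all genes did. The sums ran from 1227 to 1514 in CD9high and from 1574 to 2257 in CD9low, while Krt19 and Upk1b were not above background on any array. Of 8 tested adipocyte markers 0 were called, 0 with an unadjusted p under 0.05, and Plin1, Retn, Slc7a10 and Cidea were not above background on any array. Of Schwann cell markers 3 were tested, of lymphocyte markers 1 and of general adipose progenitor markers 11, with 0 called and 0 at an unadjusted p under 0.05 by limma; the progenitor sums ran from 33130 to 45950 in CD9high and from 30310 to 42300 in CD9low, lowest on replicate 2 of each. The part of these cells in the values of the 6 markers was not tested.

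**Figure D5:**
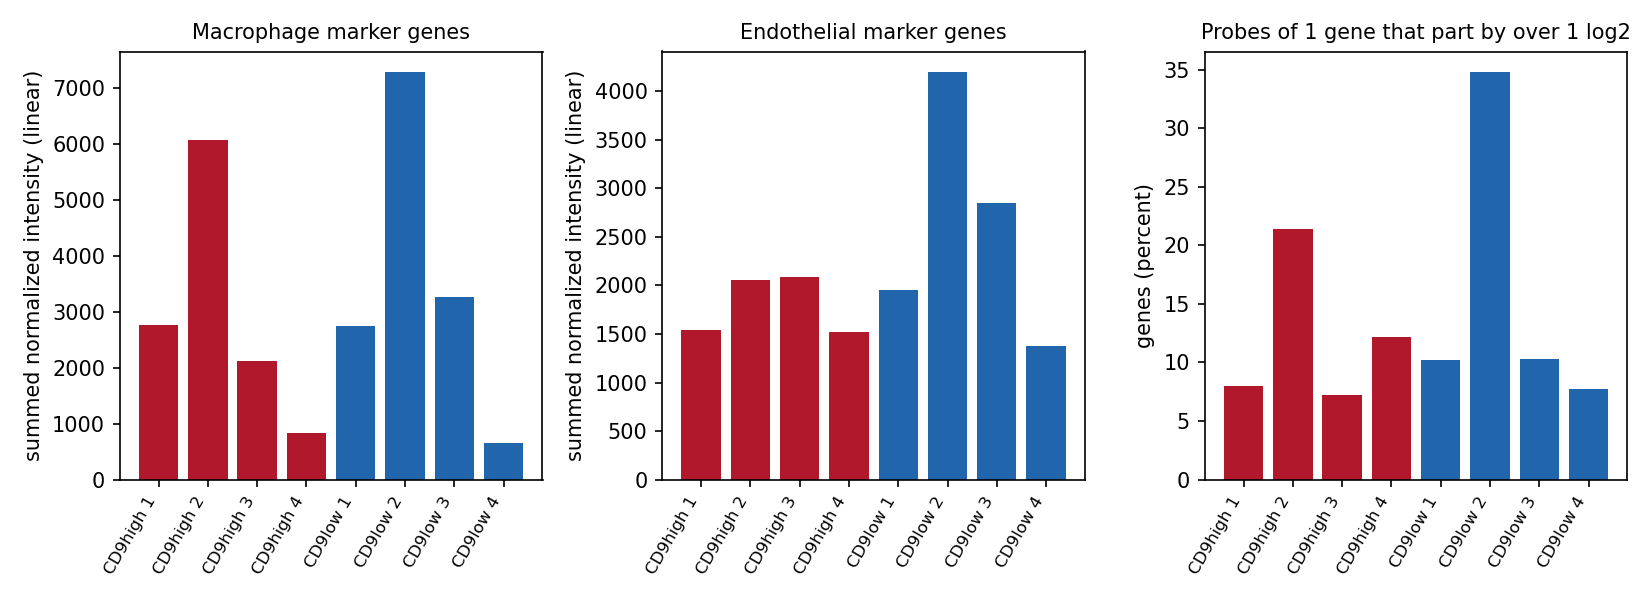
Summed linear normalized intensity of 14 macrophage and 12 endothelial marker genes, and the percent of 4642 genes whose 2 brightest probes part by over 1 on the log2 scale, on each array (red CD9high, blue CD9low; single arrays, no error). CD9low replicate 2 is the highest in all 3 panels (7289, 4200 and 34.8%).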

How the data were processed

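Total RNA of 8 sorted samples, 4 CD9high and 4 CD9low, was amplified, labelled and read on Illumina bead arrays, per the labels' protocols. Titles and cell type labels gave the fraction of each sample; a further label names high CD9 for the CD9low samples, and the titles were followed. The authors deposited signal intensity for 45281 probes with a detection p-value for each, per the file headers, and the submitters' processing notes name GenomeStudio. These intensity values had a background subtracted and were not normalized between arrays. A second deposited table held linear intensity values that had been quantile normalized, and served as an alternative.

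The limma package (3.58.1, R 4.3.3) function neqc applied a normexp background model with an offset of 16, quantile normalization and log2, which compresses dim differences. Probes with 1 gene symbol and a detection p under 0.05 on at least 4 of 8 arrays were tested, 18085 probes of 10724 genes, each gene by its brightest probe. Fractions were compared with lmFit and eBayes without a block, with Benjamini-Hochberg adjustment over all genes (or all tested probes) and a threshold of 0.05. The code was tested on simulated data. No 2 arrays held identical values. The number of arrays limits the precision.

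Members, gene lists and naming rule were chosen with earlier results of these data known. Named genes are the markers, the sort genes, listed partners, in each list the calls where 5 or fewer, otherwise the 4 with the smallest p, or with no call the gene with the smallest p, and the 5 profiles nearest to Icam1; Plin2, Nr1h3, Mgst1 and Abca8a were named after their values were seen. Ggt1 is not analysed here. Alternatives changed the background step, offset, normalization, filter, probe rule, source table, slide, replicate block, array weights and the arrays used.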

Additional observations from a re-analysis of the deposited data

Results flagged for a closer look

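Each named gene was checked within each fraction for 1 array far from the other 3 (Dixon's test), in 88 sets of 4 arrays, and chance alone flags about 5% of such sets. Of the 9 sets flagged, 5 were CD9low replicate 2: Vcam1 at 5.86 (other arrays 9.01 to 9.38), Sparcl1 at 7.91 (10.47 to 10.75), Apoe at 9.59 (11.15 to 11.30), Zfp521 at 6.24 (7.28 to 7.35) and F2r, a thrombin receptor gene, at 10.52 (9.79 to 9.80). CD9high replicate 4 was flagged for Clec11a at 8.45 (8.76 to 8.78), Dio3 at 8.26 (7.72 to 7.78) and Zfp521 at 7.45 (7.64 to 7.66). CD9high replicate 2 was flagged for Cxcl14 at 8.50 (9.38 to 9.48). Zfp521 was named for a profile near that of Icam1, itself low on CD9low replicate 2, so its low value there follows in part from that choice.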

How the results depend on the processing

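Over the 23 alternatives the difference of Icam1 ran from 0.51 to 0.80 (limma adjusted p from 0.147 to 0.632), that of Ggt5 from -0.81 to -0.44 and that of Apoe from -1.44 to -0.87, with no change of direction; F3 ran from 0.21 to 1.14 over 22, not being tested where detection on all 8 arrays was asked. Slide 1 alone and the fit without replicate 4 used the same arrays, so they are the same fit counted separately among the 23. Apoe passed the test in 3 of the 23: without CD9low replicate 2 (-1.44), without replicate 2 of both fractions (-1.37) and with array weights (-1.36). In those the count of markers called lower was 1 and otherwise 0 (range 0 to 1 with arrays left out), and the count called higher was 0 in all. Vcam1 changed direction with an offset of 50 (-0.042), with the mean of a gene's probes (-0.11) and with array weights (-0.56), and with arrays left out ran from -0.78 to 0.39. Sparcl1 was -0.44 with array weights and from -0.58 to 0.48 with arrays left out. With array weights 2 Ggt5 probes passed, at -0.93 and -0.98. The cause was not tested.

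Genes called over the whole table were 121 higher and 60 lower. They were 32 lower with median centring, 35 and 13 on slide 1 alone, 275 and 147 with array weights, and from 15 to 190 higher and from 3 to 80 lower with arrays left out. Leaving out a single array gave 36 and 18 (CD9high replicate 1), 51 and 21 (CD9high 3), 78 and 38 (CD9high 4), 52 and 23 (CD9low 1), 56 and 25 (CD9low 3) and 56 and 20 (CD9low 4), and 39 lower without CD9high 2. The median of all genes ran from -0.059 to 0.0040, against -0.040 as reported. The titles number the samples of each fraction 1 to 4, and the labels do not say whether a shared number marks a shared source. Deviations of arrays with the same number correlated with r of 0.223, -0.0996, 0.183 and 0.159 for replicates 1 to 4. The arrays numbered 1 correlated best with each other, as did those numbered 3. CD9low replicate 4 also correlated best with its own number, while CD9high replicate 4 and both arrays numbered 2 did not. The main fit did not use the numbers as pairs, and these values do not settle whether they are. A fit with the replicate number as a block called 56 genes higher and 20 lower, with 0 markers among them. Signal over background limits Dlk1, and F3 on CD9low replicate 2.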
